A study of Homo sapiens with 9 samples.

Results

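The genes described here are the writers, maintenance factors and erasers of DNA methylation, taken by symbol from a table of estimated counts for 35762 gene symbols. They number 9: the DNA methyltransferases DNMT1, DNMT3A and DNMT3B, the catalytically inactive DNMT3L, the dioxygenases TET1, TET2 and TET3, and the ring finger proteins UHRF1 and UHRF2. All 9 symbols were in the table, and 8 had enough counts to be tested among 15345 genes; DNMT3L did not.

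RNA was measured in TYUC-1, a cancer cell line that the labels assign to neuroendocrine carcinoma of the esophagus, grown in suspension. Cells had been exposed for 0, 3 or 6 days (day 0, day 3 and day 6) to EPZ-6438, which inhibits the histone methyltransferase EZH2, with 3 biological replicates per day and 9 libraries in all. The protocol names 2 uM EPZ-6438 or DMSO for every library, every library carries EPZ-6438 as its treatment, and the labels do not say if day 0 cells were given DMSO. Day 3 and day 6 have no vehicle libraries among the 9, so drug exposure and days in culture cannot be told apart. How the replicate cultures were separated is not stated, so p-values measure the spread between these libraries. In bulk RNA, fewer cells of a type and less RNA per cell cannot be told apart.

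In mammalian cells, cytosine methylation at CG dinucleotides is copied after each round of replication by DNMT1, which UHRF1 brings to hemimethylated DNA, and new methyl groups are placed by DNMT3A and DNMT3B. TET proteins oxidise 5-methylcytosine, and the base excision enzyme TDG removes the more oxidised products. EZH2, as part of the Polycomb complex PRC2, methylates lysine 27 of histone H3, and in many cell types this mark lies at CG-rich promoters that lack DNA methylation.

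The promoters of the 4 genes whose transcripts differed between day 6 and day 0 are shown first, since CG dinucleotides are the substrate of these enzymes; DNA methylation itself was not measured. Each is the window of 250 bases before an annotated start in RefSeq on GRCh38.p14, read 5′ to 3′ along the gene, with every CG dinucleotide in capitals.
UHRF1 (chr19:4909894-4910143, plus strand): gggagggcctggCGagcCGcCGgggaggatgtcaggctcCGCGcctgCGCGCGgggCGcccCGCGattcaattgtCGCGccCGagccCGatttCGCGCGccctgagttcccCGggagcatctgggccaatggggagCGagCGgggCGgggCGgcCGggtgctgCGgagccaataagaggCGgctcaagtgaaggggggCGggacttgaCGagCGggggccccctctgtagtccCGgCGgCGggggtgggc
TET2 (chr4:105145625-105145874, plus strand): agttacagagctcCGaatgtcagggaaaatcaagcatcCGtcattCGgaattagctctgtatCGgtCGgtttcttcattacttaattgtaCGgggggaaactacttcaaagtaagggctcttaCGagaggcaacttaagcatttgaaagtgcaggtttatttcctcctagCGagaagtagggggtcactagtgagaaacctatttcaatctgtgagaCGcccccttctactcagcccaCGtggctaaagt
TET3 (chr2:73984660-73984909, plus strand): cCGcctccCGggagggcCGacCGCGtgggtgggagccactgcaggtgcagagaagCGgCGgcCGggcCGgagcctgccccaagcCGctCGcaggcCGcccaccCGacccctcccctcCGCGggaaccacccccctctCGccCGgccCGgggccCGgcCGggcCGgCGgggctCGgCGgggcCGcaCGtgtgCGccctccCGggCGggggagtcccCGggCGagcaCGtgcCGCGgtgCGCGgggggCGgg
DNMT3A (chr2:25341926-25342175, minus strand): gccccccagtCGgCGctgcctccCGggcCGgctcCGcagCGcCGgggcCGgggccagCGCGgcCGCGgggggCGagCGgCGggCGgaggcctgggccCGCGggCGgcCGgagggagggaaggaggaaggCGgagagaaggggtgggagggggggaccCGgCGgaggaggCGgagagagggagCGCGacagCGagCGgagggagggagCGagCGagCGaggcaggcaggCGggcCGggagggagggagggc
The UHRF1 window held 32 CG dinucleotides, that of TET3 37, that of DNMT3A 33 and that of TET2 10, against a median of 11 over the 35116 windows of that length in the RefSeq table. Each window shown overlaps no exon of its gene and, where several do not, has the most CG dinucleotides among them. The other windows listed held 28 and 41 for UHRF1, 27 for TET3, 12 to 25 for DNMT3A and 34 for TET2, so the low count of TET2 is that of the window shown. An E2F-type match, TTTCGCGC, began 160 bases before the UHRF1 start and overlaps CG dinucleotides counted above. The letters searched on both strands were TTTCCCGC, TTTGGCGC, TTTCGCGC and TTTGCCGC, and 2.79% of all windows held at least 1 of them. Among the 19 windows listed for 8 of the genes, 2 held such a match, both of UHRF1. RefSeq lists several starts for UHRF1, TET2, TET3 and DNMT3A, and gene-level counts do not show which start was used.

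Total counts ran between 21638874 and 31235055 per library. At an adjusted p under 0.05 (edgeR quasi-likelihood test on all 9 libraries, Benjamini-Hochberg over all tested genes), 40.6% of tested genes were called between day 3 and day 0 (22.5% higher, 18.1% lower), 54.6% between day 6 and day 0 (28.9% higher, 25.7% lower), and 16.3% between day 6 and day 3 (11.5% higher, 4.76% lower). Scaling by library size in place of TMM, the trimmed mean of gene ratios, moved the median log2 fold change of day 6 over day 0 by 0.11 and turned the split from 4442 genes higher and 3938 lower to 5301 higher and 2659 lower. For day 3 over day 0 that split was 3445 higher and 2780 lower with TMM, and 4099 higher and 1825 lower by library size. Among the markers of the labelled cell type, CHGA was at 0 in all 9 libraries, while SYP (4.62 to 6.83 CPM, read counts relative to the TMM-scaled library total), INSM1 (3.51 to 5.77 CPM) and the epithelial markers EPCAM and KRT8 (each at least 287 CPM) were present. Of 13 markers of leukocytes, fibroblasts and endothelium, LYZ alone held 321 to 638 CPM. The other 12 summed to 5.62 to 6.59 CPM on day 0, 10.3 to 13.0 CPM on day 3 and 15.7 to 19.8 CPM on day 6, with CD3E and LUM at 0 on day 0. Much of that sum was COL1A1, which averaged 0.49, 3.60 and 9.53 CPM on the 3 days. VWF averaged 0.29, 1.23 and 1.29 CPM, and PTPRC 0.52, 0.38 and 0.44 CPM. Of the 9 markers tested, 4 were called higher and 1 lower on day 6 than on day 0, beside 28.9% and 25.7% of all tested genes. The part of these markers in the results on DNA methylation genes was not tested.

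Replicate 2 of day 0 stood apart from the other libraries. Its mean correlation with the libraries of its day was 0.976, against 0.986 for each of replicates 1 and 3, and its difference from them fell with transcript length, from a median log2 difference of 0.40 for genes under 1 kilobase to -0.30 for genes of 10 kilobases or more. DNMT1 was 58.3% of the mean of replicates 1 and 3 in that library, TET3 66.3%, TET1 68.5%, DNMT3A 80.1% and TET2 80.4%. UHRF1 at 92.7%, DNMT3B at 102% and UHRF2 at 104% were close to the other day 0 libraries. A test that weights libraries by their spread gave it a weight of 0.129, the lowest of the 9. Log2 fold changes against day 0 are therefore given with and without it below. Replicates 2 and 3 of day 6 also deviated from the mean of the other libraries of their day, in opposite directions along gene GC content (r = -0.637 and 0.633 across genes, which are not independent). Each of these 2 libraries is part of the mean that the other was set against, so the 2 values are not separate observations.

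**Figure D1:**
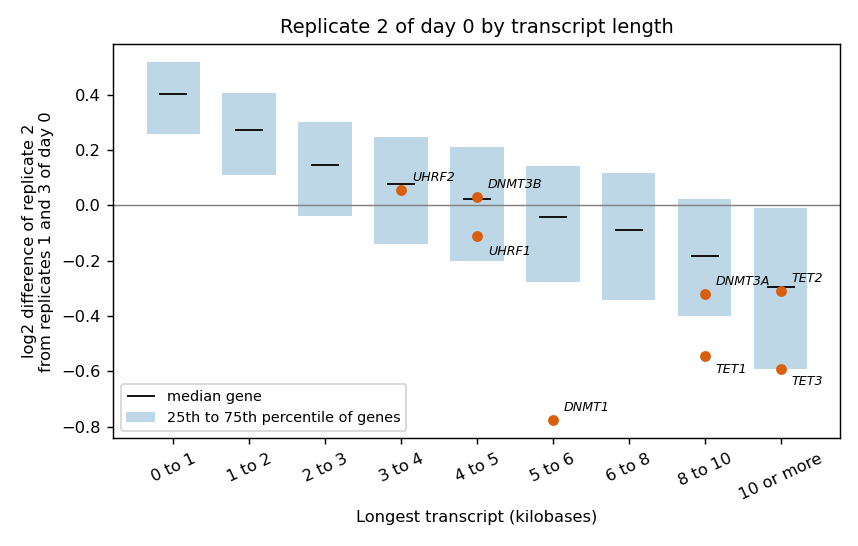
The log2 difference of replicate 2 of day 0 from replicates 1 and 3 of that day (y axis) by longest transcript in kilobases (x axis); bars span the 25th to the 75th percentile of genes, black lines mark the median gene and orange points mark the DNA methylation genes. The median falls from 0.40 to -0.30, and DNMT1 lies below the bar for its length.

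Per kilobase of the longest coding transcript, DNMT1 had the highest level of the 9 genes on every day. It stood at 92.8 ± 26.0 CPM per kilobase on day 0, 92.2 ± 1.7 on day 3 and 70.7 ± 2.8 on day 6 (SD, n = 3 each). UHRF1 was next, with 45.1 ± 2.4 CPM per kilobase on day 0, 35.7 ± 1.8 on day 3 and 30.9 ± 1.8 on day 6. UHRF2, TET3 and DNMT3B had neighbouring levels of 13.1 ± 1.0, 12.6 ± 2.8 and 11.4 ± 0.3 CPM per kilobase on day 0. TET3 differed from the other 2 by less than its own spread, while UHRF2 lay above DNMT3B by more than the SD of either. TET2 followed at 6.34 ± 0.90, and DNMT3A and TET1, at 2.98 ± 0.37 and 2.98 ± 0.61 CPM per kilobase, did not differ beyond their spread. DNMT3L was lowest, at 0.059 ± 0.052 CPM per kilobase. The place of DNMT3A in this order depends on the transcript used, since per kilobase of its median coding transcript it reached 7.90 CPM per kilobase on day 0, above the 6.66 of TET2. The closeness of UHRF2, TET3 and DNMT3B depends on it too. By their median coding transcripts they stood further apart on day 0, at 21.2, 17.4 and 11.9 CPM per kilobase.

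**Figure D2:**
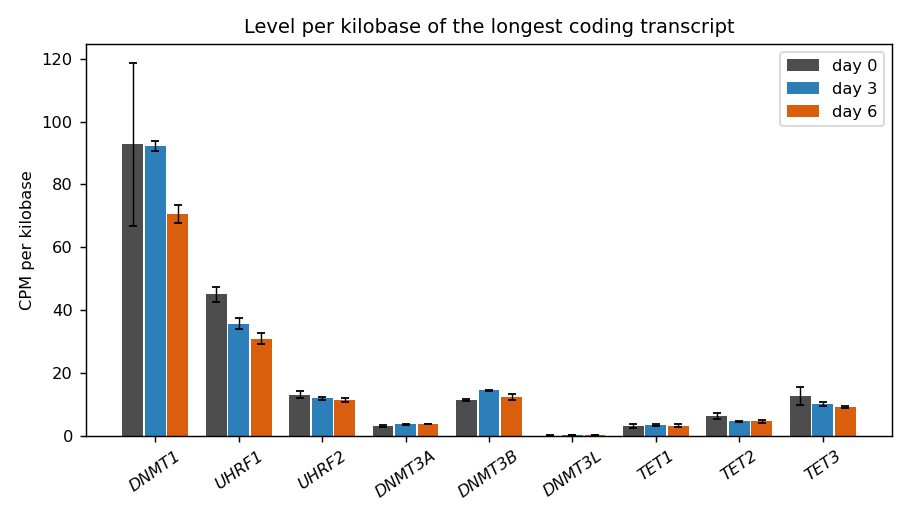
Mean CPM per kilobase of the longest coding transcript (y axis) for each gene (x axis) on day 0, day 3 and day 6, with bars for the mean and lines for the SD of 3 libraries. DNMT1 and UHRF1 stand above the other genes on every day.

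UHRF1 (ENSG00000276043, chr19:4903080-4962154 on GRCh38, plus strand) is the factor that recruits DNMT1, and its transcript fell at both later times. Its scaled level on day 0 was 205 CPM in replicate 1, 185 CPM in replicate 2 and 193 CPM in replicate 3. On day 3 the replicates had 151, 162 and 147 CPM, and on day 6 they had 141, 126 and 132 CPM. Every day 3 library lay below every day 0 library, and every day 6 library lay below every day 3 library. Day 3 over day 0 gave a log2 fold change of -0.34 ± 0.08 (SE) (edgeR adjusted p = 0.0045) and day 6 over day 0 gave -0.55 ± 0.08 (adjusted p = 9.1e-05), so the level fell by 31.5% on day 6. These were -0.38 (adjusted p = 0.00037) and -0.59 (adjusted p = 3.5e-06) without replicate 2 of day 0. Between day 6 and day 3 the log2 fold change was -0.21 ± 0.08 and did not pass (adjusted p = 0.092), whereas without replicate 2 of day 0 it was -0.21 with an adjusted p of 0.016. Both differences from day 0 were called under all 20 alternative settings that kept the 0.05 threshold and set no minimum fold, with adjusted p up to 0.028 on day 3 and 0.0011 on day 6.

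DNMT1 (ENSG00000130816, chr19:10133345-10231286, minus strand) is the maintenance methyltransferase and was the most abundant of the 9. It had 577, 340 and 589 CPM in the 3 day 0 libraries. It had 497, 509 and 491 CPM on day 3, and 393, 365 and 389 CPM on day 6. All day 6 libraries were below all day 3 libraries and below replicates 1 and 3 of day 0, while replicate 2 of day 0 lay below all 6 later libraries. With all 9 libraries edgeR called no comparison: the log2 fold change was -0.01 ± 0.16 for day 3 over day 0 (edgeR adjusted p = 0.97), -0.39 ± 0.16 for day 6 over day 0 (adjusted p = 0.057) and -0.38 ± 0.16 for day 6 over day 3 (adjusted p = 0.14). Without replicate 2 of day 0 all 3 passed, at -0.23 (adjusted p = 0.0039), -0.62 (adjusted p = 4.6e-07) and -0.39 (adjusted p = 5.4e-05). Day 6 over day 0 also passed with DESeq2 (adjusted p = 0.023), with no filter on low counts (0.011), with the length and GC trend removed (-0.58, adjusted p = 0.00034) and with library weights in limma-voom (-0.56, adjusted p = 1.4e-05). The last 2 of these settings were chosen after seeing the data. Replicate 2 of day 0 was also singled out after it was seen to deviate. In all, day 6 over day 0 was called in 5 of 20 alternative settings, with adjusted p up to 0.20. It did not pass when edgeR was fitted to only those 2 days (-0.39, adjusted p = 0.10). The day 6 to day 3 difference, which takes no value from day 0, also passed when only the libraries of those days were fitted (-0.38 ± 0.06, adjusted p = 0.00016). In all that difference was called in 4 of 20 alternative settings. The day 3 to day 0 difference changed sign with library-size scaling (0.06) and without replicate 1 (0.10) or replicate 3 (0.12) of day 0.

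UHRF2 (ENSG00000147854, chr9:6413151-6507054, plus strand), the paralog of UHRF1, was called by edgeR in no comparison with all 9 libraries. Its values were 47.9, 46.3 and 41.3 CPM on day 0, 39.7, 41.3 and 42.2 CPM on day 3, and 40.3, 41.3 and 37.0 CPM on day 6, so the 3 days overlapped. For day 6 over day 0 the log2 fold change was -0.19 ± 0.08 (edgeR adjusted p = 0.057). It passed without replicate 2 (-0.19, adjusted p = 0.042) or replicate 3 of day 0 (-0.26, adjusted p = 0.023), and with DESeq2 or its median-ratio size factors (adjusted p = 0.046 each). Those were the only 4 of 20 alternative settings that called it. With the length and GC trend removed the edgeR value was -0.05 (adjusted p = 0.48), and with only those 2 days fitted it was -0.19 (adjusted p = 0.13). The span of an antisense gene overlaps exon sequence of UHRF2, and the sources do not say if strand was used in counting. Reads of that gene from any shared stretch cannot be told apart from those of UHRF2. The count ratio of UHRF1 to UHRF2 within each library was 4.31 ± 0.34 on day 0, 3.75 ± 0.23 on day 3 and 3.38 ± 0.29 on day 6. The day 6 ratios (3.50, 3.04 and 3.58) lay below all day 0 ratios (4.28, 3.98 and 4.67). An exact 2-sided permutation test gave p = 0.1, the smallest that 3 libraries against 3 allow, and 0.2 after adjustment over 18 ratio comparisons.

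**Figure D3:**
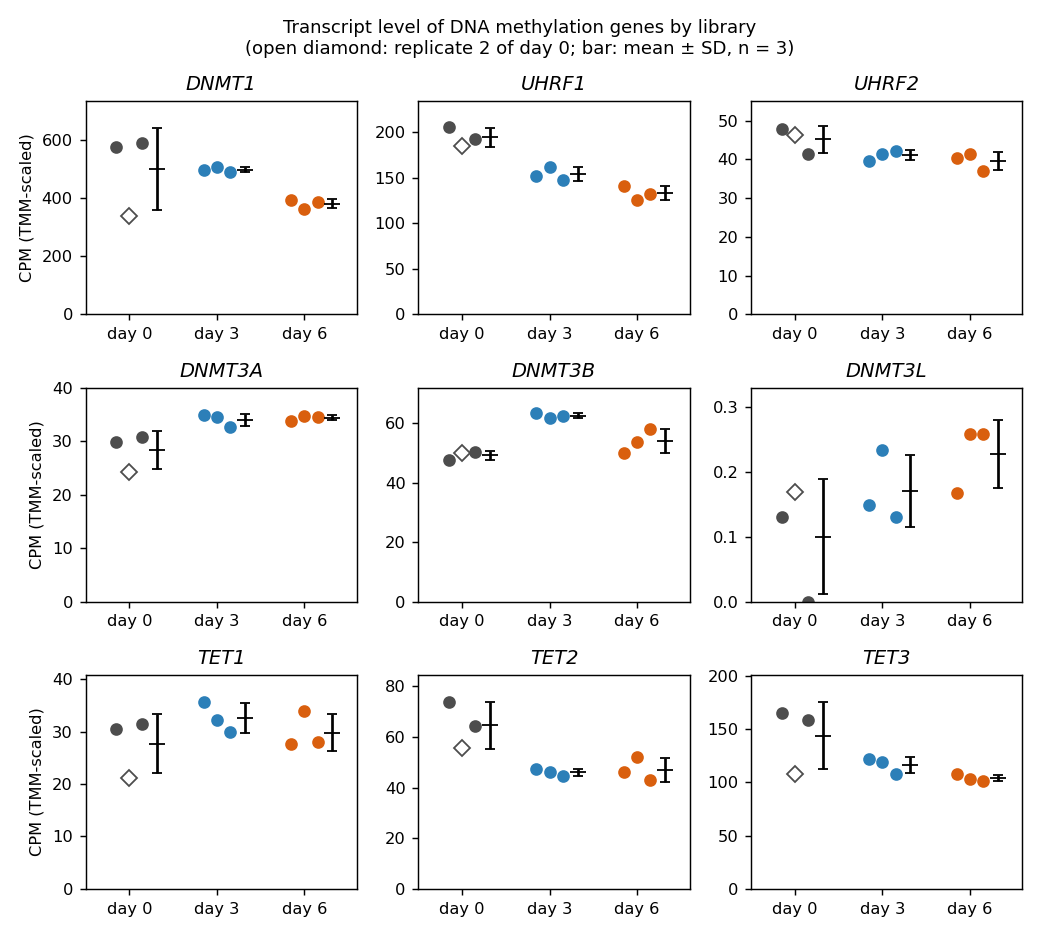
TMM-scaled CPM (y axes, from 0) of each gene in the 3 libraries of day 0, day 3 and day 6 (x axes), with the mean and SD of each day beside its points; the open diamond is replicate 2 of day 0. The UHRF1 libraries of successive days do not overlap, the DNMT3B libraries of day 3 lie above all others, and replicate 2 of day 0 is the lowest day 0 library for DNMT1, DNMT3A and the TET genes.

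DNMT3B (ENSG00000088305, chr20:32762385-32809356, plus strand), a de novo methyltransferase, was higher on day 3 than on day 0. Its values were 47.5, 49.9 and 50.3 CPM on day 0, 63.4, 61.9 and 62.6 CPM on day 3, and 50.1, 53.6 and 58.3 CPM on day 6. The day 3 libraries were above all others, and the day 6 libraries overlapped those of day 0. The log2 fold change of day 3 over day 0 was 0.35 ± 0.07 (edgeR adjusted p = 0.0031), called under all 20 alternative settings. It was 0.35 (adjusted p = 0.00095) without replicate 2 of day 0, and 0.20 (adjusted p = 0.035) once each library's trend with transcript length and GC content was removed. Day 6 over day 3 gave -0.21 ± 0.07 (adjusted p = 0.069), which passed without replicate 2 of day 0 (-0.22, adjusted p = 0.015) or replicate 3 of day 6 (-0.28, adjusted p = 0.035) and with only those 2 days fitted (-0.22, adjusted p = 0.022). Day 6 over day 0 gave 0.13 ± 0.07 (adjusted p = 0.15), and 0.13 without replicate 2 of day 0, with a value of 0.25 (adjusted p = 0.015) by library-size scaling and -0.02 with the length and GC trend removed.

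DNMT3A (ENSG00000119772, chr2:25227855-25342590, minus strand), the other de novo methyltransferase, was called higher at both later times, a call lost under several settings. It had 30.0, 24.3 and 30.8 CPM on day 0, 34.9, 34.5 and 32.8 CPM on day 3, and 33.9, 34.8 and 34.5 CPM on day 6. All 6 later libraries were above all day 0 libraries, and replicate 2 of day 0 was the lowest of the 9. Day 3 over day 0 gave 0.26 ± 0.09 on the log2 scale (edgeR adjusted p = 0.035) and day 6 over day 0 gave 0.28 ± 0.09 (adjusted p = 0.021). Without replicate 2 of day 0 both were smaller, at 0.16 (adjusted p = 0.049) and 0.17 (adjusted p = 0.030). With the trend of each library with transcript length and GC content removed they were 0.04 (adjusted p = 0.71) and 0.07 (adjusted p = 0.44). The day 3 call was also lost without replicate 1 (adjusted p = 0.11), replicate 2 (0.10) or replicate 3 (0.066) of day 3, and without replicate 1 (0.057) or replicate 3 (0.051) of day 6. That of day 6 was lost without replicate 1 (adjusted p = 0.0505), replicate 2 (0.0521) or replicate 3 (0.061) of day 6.

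DNMT3L (ENSG00000142182, chr21:44246339-44262216, minus strand), a cofactor of the de novo enzymes in germ cells, was near the limit of counting. The 3 libraries held 4, 4 and 0 counts on day 0, 4, 7 and 3 on day 3, and 5, 6 and 6 on day 6. Pooled over the 3 libraries of a day, 17 counts on day 6 against 8 on day 0 gave a depth-adjusted ratio of 2.10 with a 95% interval of 0.860 to 5.63, which covers counting error only. No difference was detectable at this depth. The span of an antisense gene overlaps exon sequence of DNMT3L too, so the limit given for UHRF2 also holds for these few counts. Within each library the count ratio of DNMT3A to DNMT3B was 0.577 ± 0.078 on day 0, 0.544 ± 0.018 on day 3 and 0.639 ± 0.042 on day 6. The day 6 ratios lay above all day 3 ratios (exact 2-sided permutation p = 0.1, the smallest possible; 0.2 adjusted over 18).

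TET2 (ENSG00000168769, chr4:105145875-105279816, plus strand) fell by day 3 and its day 6 level overlapped that of day 3. It had 73.7, 55.5 and 64.2 CPM on day 0, 47.4, 46.0 and 44.5 CPM on day 3, and 45.9, 52.2 and 42.9 CPM on day 6. All 6 later libraries lay below all day 0 libraries. The log2 fold change was -0.49 ± 0.11 for day 3 over day 0 (edgeR adjusted p = 0.0036) and -0.46 ± 0.11 for day 6 over day 0 (adjusted p = 0.0032), so the level fell by 27.1% on day 6. Both were called under all 20 alternative settings, and without replicate 2 of day 0 they were -0.59 (adjusted p = 5.3e-05) and -0.57 (adjusted p = 3.3e-05). Day 6 over day 3 gave 0.03 ± 0.11 (adjusted p = 0.89), with a 95% interval of -0.20 to 0.26.

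TET3 (ENSG00000187605, chr2:73986404-74108176, plus strand), the most abundant TET transcript in these cells, fell by day 6. Its values were 165, 107 and 159 CPM on day 0, 122, 119 and 107 CPM on day 3, and 108, 103 and 102 CPM on day 6. Replicate 2 of day 0 lay within the range of the later libraries, and replicates 1 and 3 of day 0 lay above all of them. The log2 fold change of day 6 over day 0 was -0.47 ± 0.13 (edgeR adjusted p = 0.011), or -0.65 (adjusted p = 1.1e-06) without replicate 2 of day 0; it did not pass by library-size scaling (-0.36, adjusted p = 0.074). Day 3 over day 0 gave -0.31 ± 0.13 (adjusted p = 0.086), and -0.48 (adjusted p = 4.2e-05) without that replicate; with all libraries it passed in DESeq2 (-0.32, adjusted p = 0.049). Day 6 over day 3 gave -0.16 ± 0.13 (adjusted p = 0.49), and -0.16 (adjusted p = 0.048) without it.

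TET1 (ENSG00000138336, chr10:68560656-68694482, plus strand) was called by edgeR in no comparison with all 9 libraries. It had 30.4, 21.2 and 31.4 CPM on day 0, 35.6, 32.3 and 29.8 CPM on day 3, and 27.5, 33.8 and 28.0 CPM on day 6, and the days overlapped. On the log2 scale the difference was 0.24 ± 0.14 for day 3 over day 0 (edgeR adjusted p = 0.20) and 0.10 ± 0.14 for day 6 over day 0 (adjusted p = 0.56), with a 95% interval of -0.20 to 0.41. Without replicate 2 of day 0 these were 0.07 and -0.06, and with the length and GC trend removed the day 3 difference was 0.31 and passed (adjusted p = 0.035). Within each library, TET1 made up 11.3%, 11.5% and 12.3% of the counts of the 3 TET genes on day 0, 17.4%, 16.3% and 16.4% on day 3, and 15.2%, 17.9% and 16.2% on day 6. The TET1 share of every later library stood above that of every day 0 library, replicate 2 included (exact 2-sided permutation p = 0.1 for each later day against day 0, the smallest possible; 0.2 adjusted over 18).

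Counted together, 2 of the 8 tested genes were called higher (DNMT3A and DNMT3B) and 2 lower (UHRF1 and TET2) on day 3 than on day 0, that is 4 of 8 against the 40.6% of all tested genes (22.5% higher and 18.1% lower). For day 6 over day 0, 1 was higher (DNMT3A) and 3 were lower (UHRF1, TET2 and TET3), again 4 of 8, against 54.6% of all tested genes (28.9% higher and 25.7% lower). Between day 6 and day 3, edgeR, DESeq2 and limma-voom each called 0 of 8, against 16.3% of all genes in edgeR (11.5% higher and 4.76% lower), although 3 had an unadjusted p under 0.05 in edgeR (DNMT1, UHRF1 and DNMT3B). Without replicate 2 of day 0 the counts were 6 of 8 on day 3 against day 0 (46.7% of all genes), 6 of 8 on day 6 against day 0 (60.8%) and 4 of 8 on day 6 against day 3 (30%). Leaving out replicate 3 of day 6 gave 1 call between day 6 and day 3. The libraries of 2 days did not overlap for 4, 3 and 3 of the 8 genes in the 3 comparisons, beside 53.8%, 58.7% and 43.5% of all tested genes. The counts against day 0 are near the share of all genes called, and both of these comparisons use the same day 0 libraries.

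**Figure D4:**
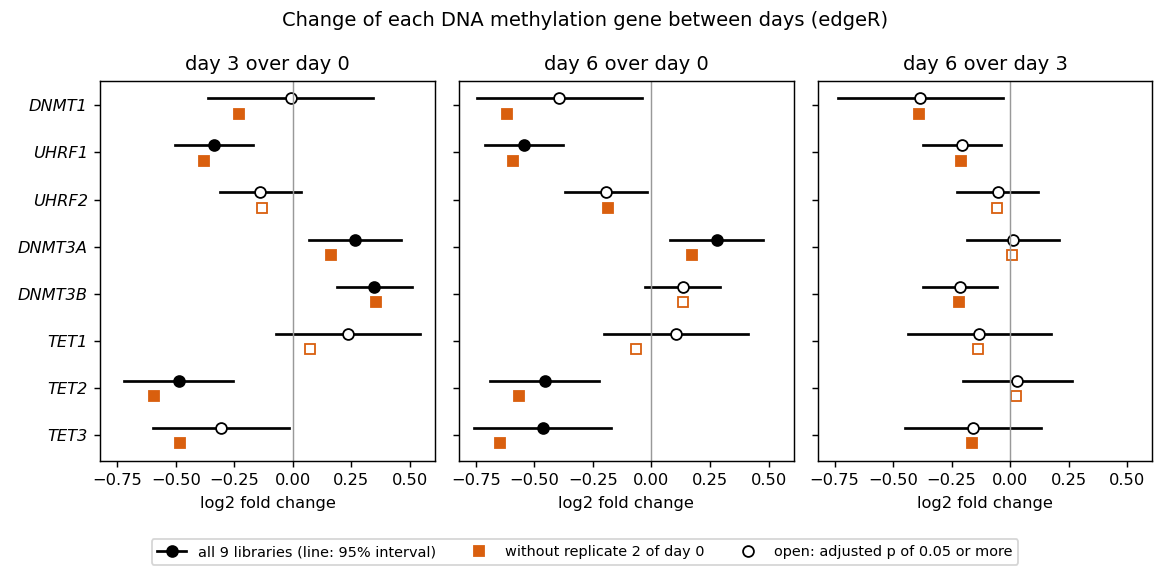
Log2 fold change (x axis) of each tested DNA methylation gene (rows) for day 3 over day 0, day 6 over day 0 and day 6 over day 3; black circles with 95% intervals are from all 9 libraries, orange squares leave out replicate 2 of day 0, and open symbols have an adjusted p of 0.05 or more. UHRF1 and TET2 lie left of 0 and filled in both comparisons with day 0, while DNMT1 is open with all libraries and filled without that replicate.

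Several partners of maintenance methylation were lower on day 6. In all, 5 of 11 tested partners were lower than on day 0 and 0 were higher (median log2 fold change -0.21, against 0.01 over all genes), beside 25.7% of all tested genes lower and 28.9% higher. The count was 7 of 11 lower without replicate 2 of day 0 (median -0.38), beside 29.1% of all genes lower and 31.7% higher. The calls on genes named here and below also passed without that replicate, except that of MBD2. HELLS, a chromatin remodeller needed for methylation of repeats, averaged 59.8 ± 4.9 CPM on day 6 and 99.6 ± 19.4 CPM on day 0 (SD, n = 3 each), a log2 fold change of -0.73 ± 0.12 (edgeR adjusted p = 0.00027), or -0.57 without replicate 2 of day 0. PCNA, the replication clamp that binds DNMT1, gave -0.64 ± 0.13 (adjusted p = 0.0010), or -0.47 without it. ZBTB24, a zinc finger protein mutated in an immunodeficiency with hypomethylated centromeric repeats, gave -0.61 ± 0.08 (adjusted p = 7.7e-05), or -0.70 without it. USP7, a deubiquitinase that binds DNMT1 and UHRF1, averaged 263 ± 5 CPM on day 6 and 349 ± 10 CPM on day 0, a log2 fold change of -0.40 ± 0.06 (adjusted p = 0.00026), or -0.43 without it.

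Genes of S phase, when maintenance methylation takes place, were lower as well. Of 23 tested, 17 were lower and 0 higher on day 6 than on day 0 (median -0.47), or 19 lower and 0 higher without replicate 2 of day 0 (median -0.45), beside 25.7% and 29.1% of all tested genes lower. RRM2, a subunit of ribonucleotide reductase, averaged 189 ± 6 CPM on day 6 and 352 ± 26 CPM on day 0 (log2 fold change -0.90 ± 0.08, edgeR adjusted p = 1.8e-06). CDC6, a replication licensing factor, gave -0.84 ± 0.08, POLA1, the primase-associated polymerase, -0.72 ± 0.08, and CHAF1B, a histone chaperone subunit, -0.70 ± 0.07. Without that replicate RRM2 was -0.84, CDC6 -0.81, POLA1 -0.76 and CHAF1B -0.71. Of 16 G2 and M phase genes, 4 were lower and 1 higher (median -0.01), but 5 were lower and 5 higher without replicate 2 of day 0 (median 0.05), and 5 lower and 6 higher with the length and GC trend removed. BUB1B, AURKA and KIF11, which act at the mitotic spindle, gave -0.38, -0.42 and -0.38, or -0.40, -0.33 and -0.31 without that replicate. CDC20, an activator of the anaphase-promoting complex, gave 0.30, or 0.32 without it, and was called in 18 of 20 alternative settings. The CDC20 call was lost with the length and GC trend removed (0.13, edgeR adjusted p = 0.060) and without replicate 3 of day 6 (0.21, adjusted p = 0.067). The part of the cell cycle genes in the values of UHRF1 and DNMT1 was not tested.

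Among the proteins that act on or after TET oxidation, calls went both ways, 6 higher and 6 lower of 20 on day 6 against day 0 (median 0.04), near the 28.9% higher and 25.7% lower of all tested genes. Leaving out replicate 2 of day 0 gave 9 higher and 8 lower (median 0.07). TDG, which excises oxidised methylcytosine, averaged 189 ± 17 CPM on day 6 and 311 ± 24 CPM on day 0, a log2 fold change of -0.72 ± 0.08 (edgeR adjusted p = 2.3e-05), or -0.66 without that replicate. IDH3A, a subunit of the mitochondrial dehydrogenase that makes the TET cosubstrate 2-oxoglutarate, gave -0.64 ± 0.08, or -0.57 without it. CXXC4, a CXXC zinc finger protein that binds TET2, was counted 47 times over the 3 day 6 libraries and 3 times over those of day 0, a depth-adjusted ratio of 15.5 (95% interval 4.99 to 77.9, counting error only).

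Of the enzymes that supply methyl groups, 9 of 15 were lower and 3 higher on day 6 than on day 0 (median -0.29), beside 25.7% of all tested genes lower and 28.9% higher. Those counts were 9 and 3 without replicate 2 of day 0 as well (median -0.23). MTRR, which keeps methionine synthase active, averaged 66.1 ± 2.9 CPM on day 6 and 96.3 ± 4.3 CPM on day 0 (log2 fold change -0.54 ± 0.07, edgeR adjusted p = 5.2e-05), or -0.52 without that replicate. TYMS, which makes thymidylate, gave -0.53 ± 0.11, or -0.39 without it. MAT1A, the S-adenosylmethionine synthetase best known from liver, was counted 217 times over the 3 day 6 libraries and 17 times over those of day 0, a ratio of 12.6 (95% interval 7.71 to 22.1), and averaged 2.85 ± 0.08 CPM on day 6.

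Of 10 proteins that read CG methylation, 3 were lower on day 6 than on day 0 and 0 were higher (median -0.09), near the 25.7% of all tested genes that were lower; without replicate 2 of day 0 the counts were the same (median -0.14). MBD4, a thymine glycosylase, averaged 73.5 ± 5.3 CPM on day 6 and 107 ± 14 CPM on day 0 (log2 fold change -0.54 ± 0.10, edgeR adjusted p = 0.00050), or -0.44 without that replicate. MBD1 (-0.26, adjusted p = 0.040) and MBD2 (-0.31, adjusted p = 0.047) passed narrowly and were called in 10 and 7 of 20 alternative settings. MBD1 was -0.37 without replicate 2 of day 0, and MBD2 no longer passed (-0.15, adjusted p = 0.11). Among factors that mark H3 lysine 36 or bind unmethylated CG islands, to which DNMT3 enzymes and PRC2 are known to respond, 4 of 10 were lower and 0 higher (median -0.20), beside 25.7% of all tested genes lower. The count was 8 of 10 without replicate 2 of day 0 (median -0.37), beside 29.1% of all genes. The H3 lysine 36 methyltransferase NSD3 gave -0.42 ± 0.08 (-0.49 without that replicate) and was called in all 20 alternative settings. SETD2, which trimethylates H3 lysine 36, gave -0.34 ± 0.10 (-0.44 without it) and was called in 17 of 20; the call was lost without replicate 1 of day 0 (adjusted p = 0.054). KDM2B, a CXXC protein, gave -0.27 ± 0.08 (-0.36 without it) and was called in 14 of 20; the call was lost without replicate 1 (adjusted p = 0.054) or replicate 3 (0.060) of day 0 or replicate 1 of day 6 (0.052). NSD2 passed narrowly (-0.30 ± 0.12, adjusted p = 0.048; -0.46 without replicate 2 of day 0), with overlapping libraries, and was called in 8 of 20. Of 13 PRC2 genes, 7 were lower and 2 higher (median -0.36), beside 25.7% of all tested genes lower and 28.9% higher, or 7 lower and 3 higher without that replicate (median -0.26). They include the core subunits SUZ12 (-0.58 ± 0.08, or -0.51 without it) and EED (-0.59 ± 0.09, or -0.50) and the accessory subunits AEBP2 (-0.71 ± 0.08, or -0.67) and PHF1 (0.73 ± 0.10, or 0.78).

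**Figure D5:**
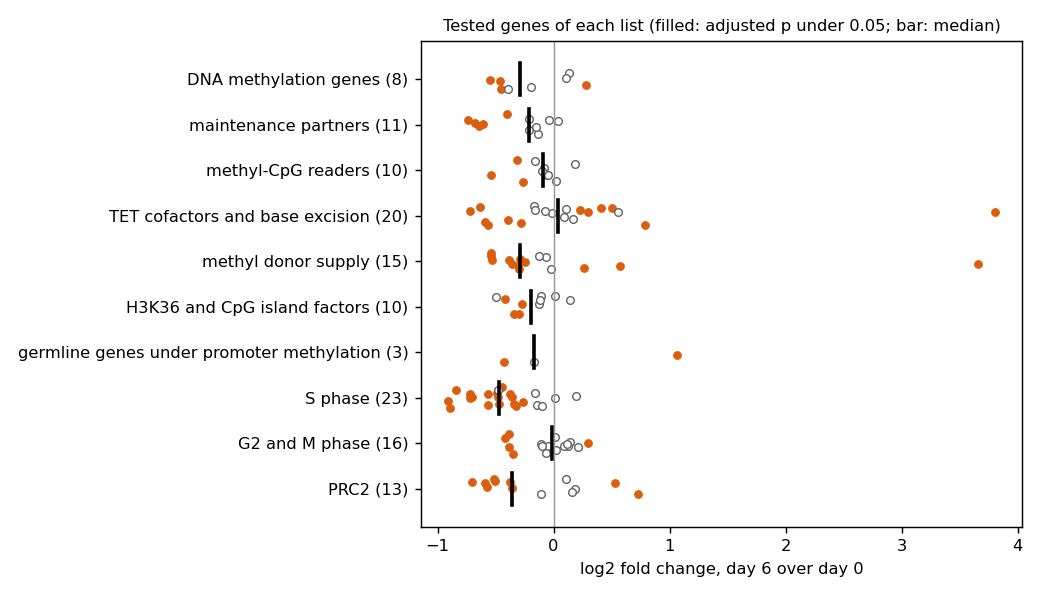
Log2 fold change of day 6 over day 0 (x axis) for the tested genes of the lists named at the left (rows, with the number tested); filled points have an adjusted p under 0.05 and black bars mark the list's median. The S phase list has its median at -0.47, the DNA methylation genes at -0.29, and the points near 4 are CXXC4 and MAT1A, which had few counts on day 0.

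Most genes known in mouse to be silenced by promoter methylation outside the germline were near the limit of counting. Of 18, 15 were not tested and reached at most 0.517 CPM in any library, and DDX4, HORMAD1 and STRA8 were at 0 in all 9. Of the 3 tested, SYCP3 of the synaptonemal complex gave -0.17, or 0.16 without replicate 2 of day 0, and passed in neither fit. STK31, a germ cell kinase-like protein, was higher on day 6 (0.530 ± 0.052 CPM) than on day 0 (0.244 ± 0.089 CPM), with a log2 fold change of 1.06 ± 0.37 (edgeR adjusted p = 0.027), or 1.19 without replicate 2 of day 0. At this low level the call held in 14 of 19 alternative settings; it was lost with DESeq2 (adjusted p = 0.11), with no filter on low counts (0.087) and without replicate 3 of day 0 (0.82, adjusted p = 0.10) or replicate 2 (0.067) or 3 (0.074) of day 6. PIWIL2, a small-RNA-binding protein of the germline, was already abundant and fell to 115 ± 1 CPM on day 6, against 156 ± 10 CPM on day 0 (-0.43 ± 0.07, adjusted p = 0.00030; -0.49 without replicate 2 of day 0).

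The genes whose log2 levels followed each DNA methylation gene most closely were found among 11033 genes by Pearson correlation over the 9 libraries, which share replicate 2 of day 0. UHRF1 was closest to ING5 (r = 0.993), POLR3E and SLC38A5, and without that replicate its r with ING5 was 0.992. TET2 was closest to DYNC1LI2 (r = 0.988), DOP1A and ARID2, and TET3 to KSR2 (r = 0.992), ANKFY1 and PDPK1. DNMT1 was closest to OPA3 (r = 0.992), SOGA1 and RGS12, DNMT3A to RNF213 (r = 0.994), STARD9 and FAM160A1, and DNMT3B to CYP27A1 (r = 0.966), PINK1 and TK2. The closest to TET1 was HYPK (r = 0.959), followed by TNRC6B and RBM15, and the r of HYPK was 0.864 without that replicate. UHRF2 was closest to FIGNL1 (r = 0.962), MIER3 and ZNF254. Among the DNA methylation genes themselves, UHRF1 and TET3 had r = 0.819 over 9 libraries and 0.971 without replicate 2 of day 0, while DNMT1 and UHRF1 had 0.565 and 0.930. These values describe 9 libraries and carry no test.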

How the data were processed

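RNA of 9 libraries was sequenced after poly-A selection and TruSeq library construction, per the labels' protocols. The deposited table holds estimated counts per gene, made with kallisto 0.44.0 after bcl2fastq 2.19, per the submitters' processing notes, which also name DESeq2 and the builds GRCh38, GRCm38 and hg38 without their roles. Whether counting used strand is not given in the sources used here. The estimated counts were rounded to whole numbers and each column was matched to a sample by its label. The rounded counts were fitted with edgeR 4.0.16 (R 4.3.3): TMM scaling, filterByExpr at a minimum count of 10, 1 mean per day over all 9 libraries, a quasi-likelihood test and Benjamini-Hochberg adjustment over 15345 genes. CPM values use TMM-scaled library sizes. Quoted intervals have a level of 95%. Count ratios of rare genes use exact intervals that cover counting error only.

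Alternatives were DESeq2 1.42.0, limma-voom (limma 3.58.1), other scalings and filters, a replicate block, fits of 2 days, a minimum change of 1.5-fold, a threshold of 0.01, and leaving out each library. Removal of each library's trend with transcript length and GC content and limma-voom with library weights were chosen after seeing the data. Fits without replicate 2 of day 0 are given throughout because that library was seen to deviate. Lengths and coordinates are from GENCODE on GRCh38, matched by symbol or gene ID for 34773 symbols; 15227 tested genes had a length and GC content. Promoter windows are from RefSeq.

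The genes described and the lists were chosen with earlier results of these data known. From each further list, up to 4 genes were named, those called between day 6 and day 0 with the lowest p. A few genes that this rule names are not reported here. The genes most like each DNA methylation gene were the 3 with the highest correlation of log2(CPM + 0.5) among genes averaging at least 5 CPM. The test was tried before use on simulated data, in which few genes changed and no library had a trend with transcript length. That trial does not show how the test behaves on these data.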

Additional observations from a re-analysis of the deposited data

How the results depend on the processing

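The log2 fold changes of the 8 tested DNA methylation genes in 3 comparisons were recomputed 528 times: 459 kept their direction and side of the threshold, 25 no longer passed, 33 newly passed and 11 changed sign. For 123 results on other named genes, 2386 of 2686 kept both, 209 no longer passed, 71 newly passed and 20 changed sign.

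With a minimum change of 1.5-fold, 0 of the 8 DNA methylation genes were called for day 3 or day 6 over day 0. Over all genes that setting called 1223 (1196 higher, 27 lower) for day 3 over day 0, 2529 (2303 higher, 226 lower) for day 6 over day 0 and 857 (814 higher, 43 lower) for day 6 over day 3. At an adjusted p under 0.01, 2 of the 8 were called for day 6 over day 0, beside 6384 of all 15345 tested genes. That threshold called 3860 of all genes for day 3 over day 0 (1471 lower) and 1444 for day 6 over day 3 (1159 higher, 285 lower). Library-size scaling gave 1825 genes lower for day 3 over day 0. For day 6 over day 3 the filter at a mean of 5 CPM gave 1248 genes (826 higher, 422 lower), fitting only the 2 days 4331 (1824 lower), removing the length and GC trend 4341 (2034 lower) and library weights 5004 (2805 higher, 2199 lower). Those last 3 settings each called 3 of the 8 DNA methylation genes there.

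Leaving out 1 library at a time gave 4653 to 7289 genes for day 3 over day 0 (2807 to 3919 higher, 1846 to 3370 lower), 7268 to 9496 for day 6 over day 0 (3901 to 4958 higher, 3367 to 4538 lower) and 1606 to 4681 for day 6 over day 3 (1258 to 2591 higher, 348 to 2090 lower). The calls among the 8 ran 3 to 6, 3 to 6 and 0 to 4. For day 6 over day 3 the lowest count came without replicate 2 of day 3 and the highest without replicate 2 of day 0.

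No sign change was of a result called with all 9 libraries. DNMT1 for day 3 over day 0 was 0.0577 by library size, 0.0390 with the filter at 5 CPM, 0.0345 with limma-voom and 0.0214 with the replicate block, and -0.230 to 0.120 when a library was left out. DNMT3B for day 6 over day 0 was -0.0230 with the length and GC trend removed. TET1 for that comparison was -0.0812 with library weights, and -0.0648 to 0.196 when a library was left out. Left-out libraries gave -0.0157 to 0.0277 for DNMT3A and -0.0506 to 0.0866 for TET2 on day 6 over day 3. KDM2B for day 3 over day 0 was -0.00126 with median-ratio size factors, -0.00511 with no filter, -0.00128 with DESeq2, -0.000667 with the 20 most abundant genes removed, -0.194 with the length and GC trend removed, -0.0566 with library weights and -0.0741 to 0.0587 when a library was left out. NSD2 there was 0.00966 by library size and -0.217 to 0.0256 when a library was left out. For day 6 over day 3, EPCAM was 0.0114 by library size and 0.00892 with the 5 CPM filter. Left-out libraries gave -0.0567 to 0.0131 for EPCAM, -0.0354 to 0.0712 for MBD2, -0.0916 to 0.190 for VWF and -0.140 to 0.271 for PDGFRB. The causes were not tested.

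The labels number the replicates 1 to 3 on each day, but deviations of same-numbered libraries correlated between -0.153 and 0.209 over the 9 pairs, so the numbers were not taken to pair them. A fit with the replicate block called 6113, 8305 and 2293 genes in the 3 comparisons and 4, 4 and 0 of the 8, as without it.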

Other observations

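TRDMT1, the family relative that methylates transfer RNA in place of DNA, was looked at after its values were seen and moved the other way from UHRF1 and TET2. It had 14.3, 17.6 and 12.6 CPM on day 0, 17.0, 14.5 and 16.2 CPM on day 3, and 22.6, 26.4 and 21.1 CPM on day 6, and all day 6 libraries were above all others. The log2 fold change was 0.65 ± 0.13 for day 6 over day 0 (edgeR adjusted p = 0.0011) and 0.56 ± 0.13 for day 6 over day 3 (adjusted p = 0.00996). Without replicate 2 of day 0 these were 0.78 (adjusted p = 3.0e-05) and 0.55 (adjusted p = 0.00056).

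The processed pseudogene copies DNMT3AP1 and UHRF2P1 were at 0 in all 9 libraries, and TET1P1 reached at most 0.216 CPM. S1PR2, whose span overlaps that of DNMT1 on the same strand without covering its exons, had 2.51 to 7.63 CPM.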
